A study of Mus musculus with 17 samples.

Results

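The genes described here are the expressed zinc finger genes of the Zfp series in sorted kidney macrophages of lupus-prone mice. A gene was taken when its symbol in the array's annotation was Zfp followed only by a number and the mean of its log2 values over all 17 arrays was 6 or higher. Of 279 such symbols among 15780 named genes, 221 passed this level and 58 did not. The genes were selected on this mean level, which is given as a description and not as a finding. The level alone set no direction between groups, and 217 of the 221 had a mean of 6 or higher in every group. The remaining 4 (Zfp606, Zfp618, Zfp712 and Zfp82) passed although 1 or more groups lay under 6. The 3 genes just inside had means of 6.01 (Zfp712), 6.10 (Zfp606) and 6.13 (Zfp82), and the 3 just outside had means of 5.98 (Zfp184), 5.98 (Zfp612) and 5.95 (Zfp128). The median over the 221 genes was 8.00 and the highest mean 12.27.

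Cells with high F4/80, the surface marker of the sort, were taken from kidneys of NZB/W mice, a hybrid strain that develops lupus nephritis on its own. The remission group (n = 4 arrays) was sampled 3 to 4 weeks after complete remission, reached with 1 dose of cyclophosphamide, 6 doses of CTLA4Ig and an antibody to CD154. The nephritic group (n = 7 arrays) came from mice 2 to 6 weeks after proteinuria began and before terminal renal failure. The prenephritic group (n = 6 arrays) came from mice aged 8 to 16 weeks. Ages of the first 2 groups are not in the labels, so age cannot be told apart from disease, nor drug treatment from remission. Nothing in the labels says whether arrays hold separate animals or pools, so the p-values below rest on the spread from array to array, which may be partly technical.

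Zinc finger proteins of this kind fold short loops around zinc ions and use arrays of such fingers to read DNA, or in some cases RNA. Many carry a KRAB domain, which recruits the corepressor TRIM28 and, through it, the histone methyltransferase SETDB1, so that chromatin around the bound site is silenced. The best known targets of that silencing are endogenous retroviruses and imprinted regions. Genes of the family often lie side by side in the genome, because the family grew by local duplication. Others in the series have unrelated tasks, such as decay of cytokine mRNA or ubiquitin ligation.

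The arrays resembled each other, with correlations over 15780 genes between 0.942 and 0.994. Adgre1, the gene of F4/80, averaged 13.23 in remission, 13.24 in nephritic and 13.08 in prenephritic arrays on the log2 scale. Of 14 measured macrophage markers 3 were higher (21.4%) and 1 lower (7.14%) in nephritic than in prenephritic arrays. The shares among genes with a mean of 6 or higher were 9.33% and 6.90%. In remission against nephritic arrays 0 of these markers were higher and 3 lower (21.4%), against 4.36% and 14.0% of those genes. RNA of kidney tubule cells was present as well. A tubule score, the mean centred log2 value of 43 measured of 46 listed tubule genes, ranged from 0.03 to 1.36 in remission, from −2.02 to 0.55 in nephritic and from −1.04 to 0.73 in prenephritic arrays. Means of these 43 genes over all arrays ran from 5.57 to 12.38, against a lower quartile of 4.99 over all probe sets. The lowest of them lay under the level of 6 used for the Zfp genes. The score's differences were 1.10 for remission minus nephritic (exact two-sided permutation p = 0.0242, adjusted p = 0.107 over 15 tests) and −0.17 for nephritic minus prenephritic arrays (exact p = 0.707, adjusted p = 0.884). Some markers of other leukocytes and of vessels passed the test. In nephritic against prenephritic arrays 4 of 15 B cell markers were higher and 1 lower, 3 of 12 T cell markers were higher and 1 lower, and 1 of 13 endothelial markers was higher and 0 lower, against 9.33% higher and 6.90% lower among genes with a mean of 6 or higher. In remission against nephritic arrays 0 B cell markers were higher and 2 lower, 1 T cell marker was higher and 4 lower, and 1 endothelial marker was higher and 1 lower, against 4.36% and 14.0% of those genes, so the endothelial counts were near the background. The part of these cells in the Zfp differences was not tested. In bulk RNA, fewer cells of a type and less RNA per cell cannot be told apart.

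In macrophages of nephritic kidneys most of the Zfp genes had lower levels than in prenephritic ones. Of the 221 genes, 59 fell (26.7%) and 4 rose (1.81%) by limma's moderated test at an adjusted p under 0.05, with p-values adjusted over all 15780 genes. Among all genes tested the shares were 5.32% lower and 6.74% higher, and among the 10343 genes with a mean of 6 or higher they were 6.90% lower and 9.33% higher. The median log2 difference of the 221 genes was −0.25 (quartiles −0.36 and −0.13), against 0.00 over genes with a mean of 6 or higher. Its sign was negative in 196 genes and positive in 25. The typical change was small. Called changes of at least 2-fold were found in 2 of the 221 genes, against 236 of the 10343 genes with a mean of 6 or higher.

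**Figure D1:**
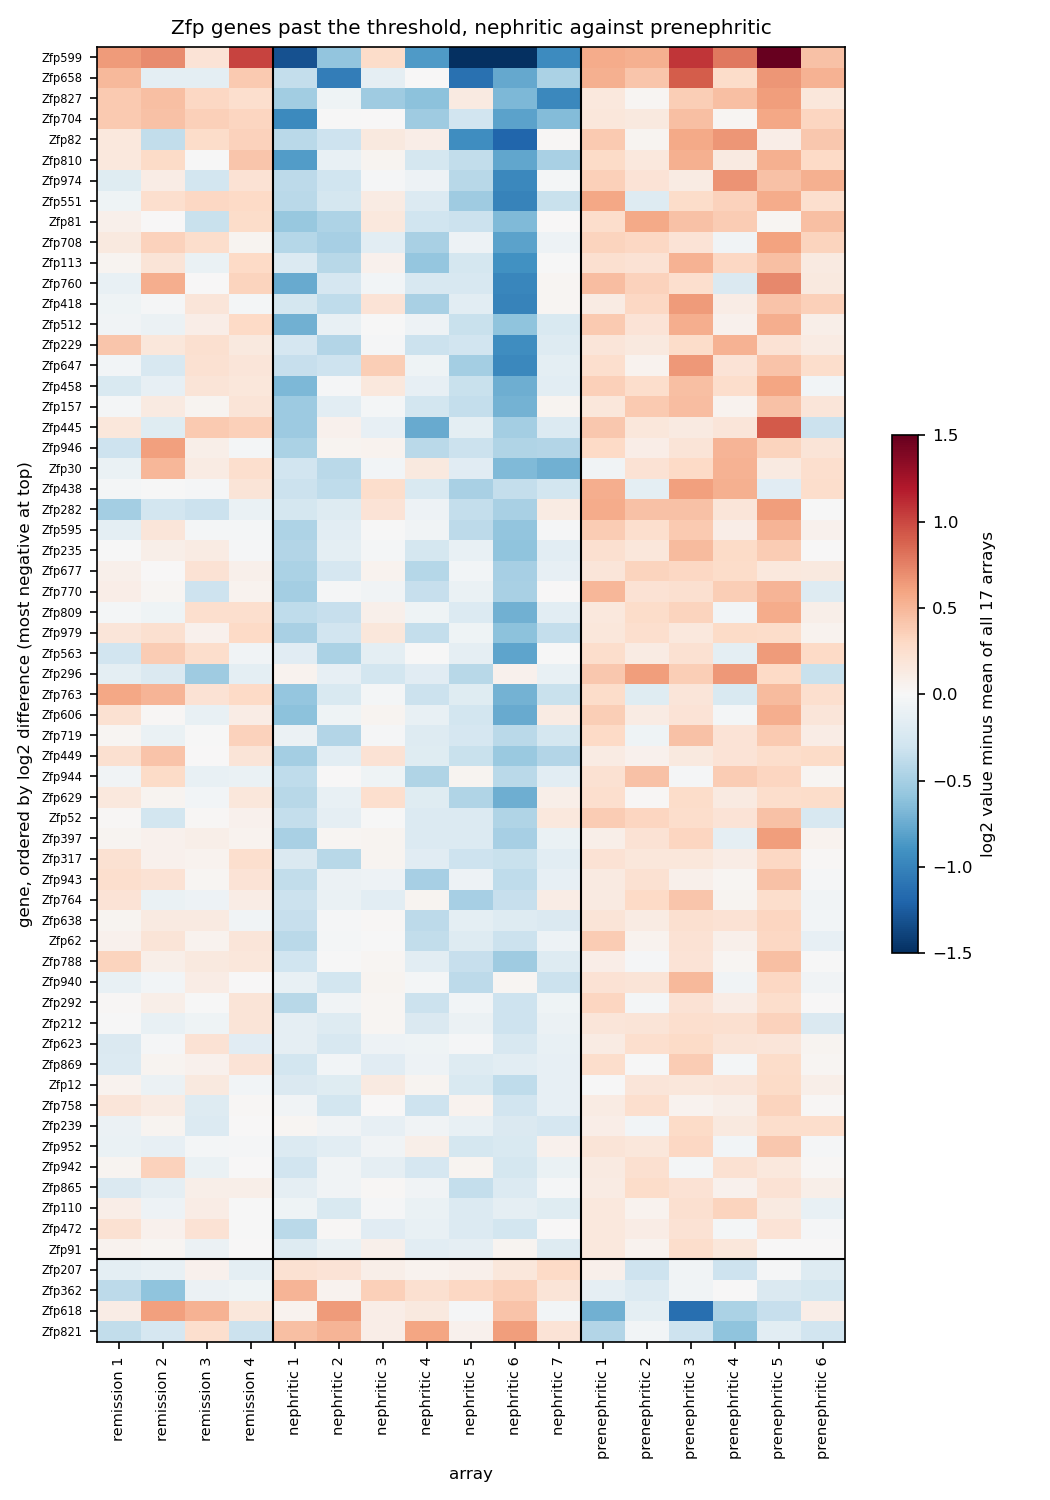
Each row is 1 of the 63 Zfp genes past the threshold between nephritic and prenephritic arrays, each column 1 array, and colour is the log2 value minus the gene's mean over 17 arrays. The upper 59 rows are mostly blue in the nephritic arrays, deepest in replicate 6 and palest in replicate 3, and mostly red in the 6 prenephritic arrays; the lower 4 rows are the genes that rose.

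Zfp599 had the largest decrease. Its log2 values were 9.18, 9.25, 8.74 and 9.55 in remission arrays, lay between 5.98 and 8.82 with a median of 7.60 in nephritic arrays, and between 8.97 and 10.19 with a median of 9.21 in prenephritic arrays. All nephritic arrays lay below all prenephritic arrays, and the highest nephritic array stood above 1 remission array. The gene was 3.80-fold lower in nephritic than in prenephritic arrays (log2 difference −1.93 ± 0.34, standard error, limma adjusted p = 0.00137).

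Zfp658, whose human counterpart represses genes through a zinc-responsive DNA element, was next. Remission arrays read 9.72, 9.09, 9.09 and 9.63, nephritic arrays 8.13 to 9.24 with a median of 8.77, and prenephritic arrays 9.51 to 10.15 with a median of 9.77. Its nephritic and prenephritic arrays did not overlap, and it was 2.15-fold lower in nephritic arrays (−1.10 ± 0.18, limma adjusted p = 0.000826).

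The next 8 decreases lay between −0.76 and −0.65. Zfp827, whose human counterpart brings a chromatin remodelling complex to telomeres, differed by −0.76 ± 0.15, with 1 or more nephritic arrays inside the prenephritic range. Zfp704 differed by −0.75 ± 0.15 and Zfp810 by −0.73 ± 0.13, both with groups that did not overlap. Roles of the others, Zfp82 (−0.73 ± 0.21), Zfp974 (−0.70 ± 0.14), Zfp551 (−0.68 ± 0.15), Zfp81 (−0.66 ± 0.13) and Zfp708 (−0.65 ± 0.12), are left unstated. The limma adjusted p of these 8 ran from 0.00185 to 0.0311. Zfp82 is 1 of the 4 genes with a group mean under 6, and was not past the threshold under 9 of 28 other settings.

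In part of the genes the groups were fully separate. In 18 of the 221 genes every nephritic array lay below every prenephritic array (8.14%), and in 2 genes (0.905%), Zfp362 and Zfp821, every nephritic array lay above. Among genes with a mean of 6 or higher the shares were 2.14% and 4.34%.

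The 4 genes that rose were Zfp821 (0.67 ± 0.13, limma adjusted p = 0.00214), Zfp618 (0.64 ± 0.17, adjusted p = 0.0213), Zfp362 (0.43 ± 0.09, adjusted p = 0.0048) and Zfp207 (0.29 ± 0.07, adjusted p = 0.0133). Zfp207 encodes a spindle protein that loads Bub3 onto kinetochores. Zfp821 read 8.14, 8.26, 8.76 and 8.19 in remission arrays, 8.58 to 9.14 with a median of 8.96 in nephritic arrays, and 7.91 to 8.47 with a median of 8.22 in prenephritic arrays. Zfp362 read 9.72, 9.51, 10.02 and 10.05 in remission arrays, 10.16 to 10.62 with a median of 10.43 in nephritic arrays, and 9.85 to 10.12 with a median of 9.94 in prenephritic arrays. In Zfp362 the nephritic arrays stood above both other groups without overlap, and in Zfp821 only remission replicate 3 reached the nephritic range. Zfp618 passed the level although its prenephritic mean was 5.79.

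**Figure D2:**
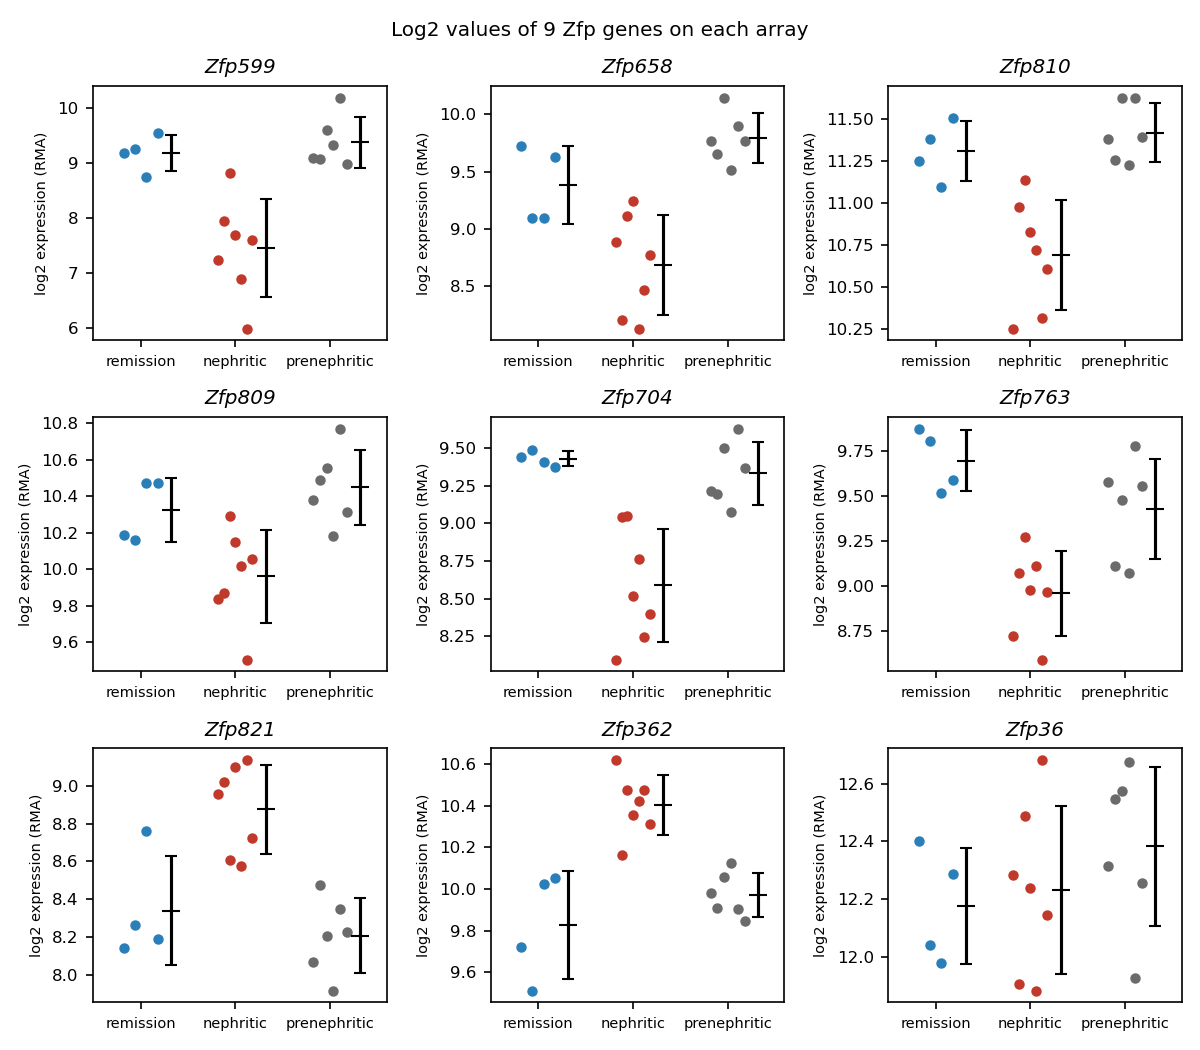
Log2 expression of 9 Zfp genes in remission (left), nephritic (middle) and prenephritic arrays (right), with a point per array and the mean ± SD beside each group. Nephritic points lie low for Zfp599, Zfp658, Zfp810, Zfp809, Zfp704 and Zfp763, high for Zfp821 and Zfp362, and among the other groups for Zfp36.

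Genes with a known part in silencing were examined from a list of 28 Zfp genes with established roles, of which 23 were among the 221, 2 lay under the level of 6 and 3 were not analysed here. Zfp809, a KRAB protein that silences endogenous retroviruses by binding their primer binding site, read 10.19, 10.16, 10.47 and 10.48 in remission arrays. It lay between 9.50 and 10.29 (median 10.02) in nephritic and between 10.18 and 10.77 (median 10.43) in prenephritic arrays. The groups overlapped slightly, and Zfp809 fell by 0.49 ± 0.12 (limma adjusted p = 0.0131). Zfp445, which guards DNA methylation at imprinted regions, fell by 0.57 ± 0.17 (adjusted p = 0.0435), and its adjusted p was 0.05 or more under 16 of 28 other settings. Zfp638, an RNA-binding protein that silences unintegrated retroviral DNA, fell by 0.36 ± 0.08 (adjusted p = 0.00463). Zfp57 and Zfp568, known for imprint and Igf2 repression, had means of 4.98 and 5.18 and were outside the set. Zfp644, a partner of the histone methyltransferases Ehmt1 and Ehmt2, stood at −0.26 ± 0.10 (adjusted p = 0.0973), and Zfp687 and Zfp592, which join Zmynd8 in one complex, at −0.27 ± 0.10 and −0.11 ± 0.08 (adjusted p = 0.0953 and 0.428).

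Genes for partners of KRAB proteins were examined as a list. Of 36 listed corepressor and heterochromatin genes 32 were measured, 1 of them higher and 1 lower in nephritic than in prenephritic arrays (3.12% each, against 9.33% higher and 6.90% lower among genes with a mean of 6 or higher), with a median log2 difference of 0.04. Trim28, the KRAB corepressor gene, and Setdb1 were picked after their values were seen. Trim28 stood at 0.06 ± 0.07 (limma adjusted p = 0.637) and Setdb1 at −0.13 ± 0.13 (adjusted p = 0.607). The histone chaperone gene Daxx rose by 0.37 ± 0.11 (adjusted p = 0.0348) and the DNA methyltransferase gene Dnmt3b fell by 0.44 ± 0.12 (adjusted p = 0.0283). Atrx, the partner of Daxx, stood at −0.33 ± 0.11 (adjusted p = 0.071) and Uhrf1, which recruits the maintenance DNA methyltransferase, at 0.25 ± 0.09 (adjusted p = 0.0843).

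Members that act on RNA or proteins varied in their response. Zfp36 encodes tristetraprolin, which binds AU-rich elements and speeds the decay of cytokine mRNAs. It had the highest mean of the 221 genes and read 12.40, 12.04, 11.98 and 12.29 in remission arrays. Nephritic arrays lay between 11.88 and 12.68 (median 12.24) and prenephritic arrays between 11.93 and 12.68 (median 12.43). The 3 groups overlapped almost wholly, with a nephritic minus prenephritic difference of −0.15 ± 0.14 (limma adjusted p = 0.578). Its paralogue Zfp36l1, outside the set by its suffix and chosen after its value was seen, stood at −0.38 ± 0.13 (adjusted p = 0.0631). Of 25 tristetraprolin targets and partners 24 were measured, and Il10 (2.47 ± 0.51, limma adjusted p = 0.00434) was the 1 that rose. At the adjusted threshold by limma 0 fell, and 6 had an unadjusted p under 0.05 in either direction. These shares of 4.17% higher and 0% lower lay under the 9.33% and 6.90% of genes with a mean of 6 or higher. Mapkapk2, the kinase that inactivates tristetraprolin, stood at 0.32 ± 0.12 (adjusted p = 0.099).

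Zfp91, a ubiquitin ligase that acts on noncanonical NF-κB signalling, fell by 0.21 ± 0.06, the smallest of the 59 decreases (limma adjusted p = 0.0386, and 0.05 or more under 12 of 28 other settings). Zfp598, the ligase that marks stalled ribosomes, stood at −0.07 ± 0.09 (adjusted p = 0.711), and Zfp622, a factor in the maturation of the large ribosomal subunit, at 0.05 ± 0.12 (adjusted p = 0.852). Zfp326, which couples RNA polymerase to splicing, stood at −0.13 ± 0.08, and Zfp106, an RNA-binding protein needed by motor neurons, at 0.06 ± 0.10 (adjusted p = 0.343 and 0.786). Zfp318, needed for IgD expression in B cells, stood at −0.15 ± 0.08 (adjusted p = 0.273).

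Among DNA-binding regulators, Zfp110, a neurotrophin receptor partner, fell by 0.27 ± 0.07 and Zfp292, a large nuclear zinc finger protein, by 0.32 ± 0.08 (limma adjusted p = 0.0153 and 0.0196). Zfp148, Zfp263 and Zfp281, which bind GC-rich promoters, stood at −0.22 ± 0.07, −0.15 ± 0.11 and 0.04 ± 0.08, with adjusted p of 0.0589, 0.435 and 0.834. Zfp410, the dedicated activator of Chd4, stood at −0.01 ± 0.10, Zfp384 at 0.01 ± 0.09, Zfp335, a cofactor of histone methyltransferase complexes, at 0.05 ± 0.11 and Zfp746, a repressor of Ppargc1a, at −0.16 ± 0.07. None of these 4 had an adjusted p under 0.18. Of the other genes with high means, Zfp512 fell by 0.60 ± 0.13 (adjusted p = 0.00462), while Zfp703, Zfp871 and Zfp706 stood at −0.35 ± 0.12, −0.33 ± 0.14 and 0.01 ± 0.08 (adjusted p = 0.0573, 0.15 and 0.956).

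Lower genes were found at low and high levels alike. Of 110 genes with a mean under 8, 26 fell (23.6%), against 7.33% of all 3085 named genes between 6 and 8. Of 92 genes between 8 and 10, 27 fell (29.3%), against 7.37% of 4068 named genes. Of 19 genes at 10 or higher, 6 fell and 2 rose, against 5.89% lower and 12.4% higher among 3190 named genes. The 58 Zfp genes under the level of 6 had 10 lower (17.2%) and 1 higher (1.72%), against 5.32% and 6.74% of all named genes. A share over genes under 6 alone was not worked out. It was smaller in both directions, since genes with a mean of 6 or higher had 6.90% lower and 9.33% higher. The 1.72% is therefore not read as a shortfall. The 15 with a suffix after the number and a mean of 6 or higher had 3 lower (20%) and 0 higher. Among all genes with a mean of 6 or higher the shares were 6.90% and 9.33%. Zbtb, Zscan and Zkscan genes, which also encode finger proteins of this class, had 8 lower and 0 higher of 43 with a mean of 6 or higher. Their share of 18.6% lower stood against the same 6.90%, and their median was −0.17. This comparison was chosen after the values were seen, and no test of a difference between families was made.

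**Figure D3:**
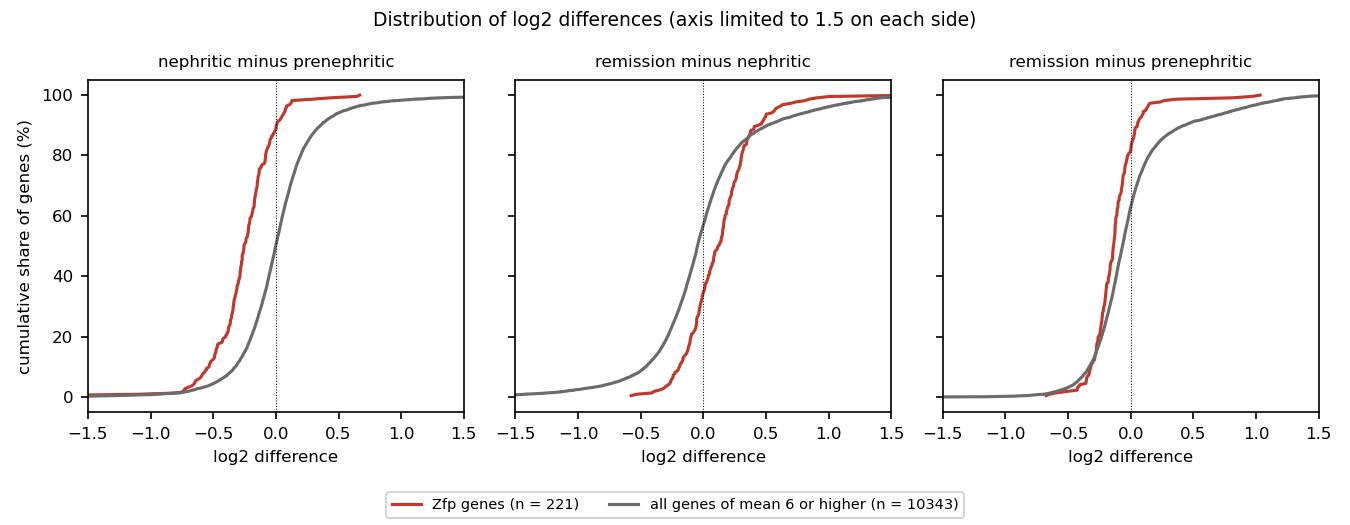
Cumulative share of genes (%, vertical) by log2 difference (horizontal) for the 221 Zfp genes (red) and all 10343 genes with a mean of 6 or higher (grey) in the 3 comparisons. The Zfp curve lies left of the grey curve for nephritic minus prenephritic arrays, with medians of −0.25 and 0.00, and right of it through most of the range for remission minus nephritic arrays, with medians of 0.12 and −0.05.

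Position in the genome was the next feature that the choice of genes had not used. All 221 genes were found in the RefSeq table of the mouse assembly GRCm38.p6, which was used only to see which protein-coding genes neighbour each other. With at most 2 other protein-coding genes between neighbours, 79 of the 221 fell into 16 runs of 3 to 14 genes. Of these 79, 30 were lower in nephritic arrays (38.0%, median difference −0.30), against 29 of the 142 others (20.4%, median −0.20). Among all genes with a mean of 6 or higher 6.90% were lower. The median was negative in each of the 16 runs, but 88.7% of the 221 genes had a negative difference, so this sign is not particular to runs. The longest run, 14 genes from Zfp677 to Zfp946, had a negative difference in all 14 and 9 of them fell, between −0.64 and −0.08 over the run. Near-identical fingers are common among neighbours, so genes of a run are not independent measurements, and hybridisation of a probe to a neighbour's mRNA was not tested.

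The run of Zfp809, Zfp599 and Zfp810 was the 1 in which all 3 members fell, by 0.49, 1.93 and 0.73 on the log2 scale. It holds the gene with the largest decrease and the retroviral silencer described above. The start regions of 2 of its members and of Zfp658 are printed because they belong to the run in which each gene fell and to the gene with the next largest decrease. Each spans 250 bases before to 50 bases after the most upstream start, from RefSeq on GRCm38.p6, 5′ to 3′ on the gene's strand. Capitals mark matches on either strand to CCAAT (the NF-Y box), GGGCGG (the SP box) and the palindromic NRF1 motif. Zfp599 has no entry in that table.
Zfp658, chr7:43562120-43562419, plus strand: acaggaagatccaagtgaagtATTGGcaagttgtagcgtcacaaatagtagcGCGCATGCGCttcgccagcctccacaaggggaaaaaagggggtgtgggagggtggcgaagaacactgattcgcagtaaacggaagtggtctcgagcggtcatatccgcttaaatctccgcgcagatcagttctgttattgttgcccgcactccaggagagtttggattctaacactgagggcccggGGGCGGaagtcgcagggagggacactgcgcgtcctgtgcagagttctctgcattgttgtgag
Zfp809, chr9:22225453-22225752, plus strand: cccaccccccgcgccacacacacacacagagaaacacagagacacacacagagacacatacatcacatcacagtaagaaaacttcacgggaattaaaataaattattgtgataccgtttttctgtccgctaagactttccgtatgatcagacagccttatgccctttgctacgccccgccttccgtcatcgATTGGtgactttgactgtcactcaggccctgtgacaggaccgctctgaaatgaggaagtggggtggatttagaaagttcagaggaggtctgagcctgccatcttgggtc
Zfp810, chr9:22307589-22307888, minus strand: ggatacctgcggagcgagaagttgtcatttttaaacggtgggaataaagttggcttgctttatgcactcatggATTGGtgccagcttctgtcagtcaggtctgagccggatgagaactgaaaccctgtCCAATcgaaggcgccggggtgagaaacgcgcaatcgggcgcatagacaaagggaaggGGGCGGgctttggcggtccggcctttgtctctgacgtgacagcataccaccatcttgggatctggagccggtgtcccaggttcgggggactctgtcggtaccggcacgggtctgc

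Zfp658 held 1 match to each of these 3 motifs, Zfp809 held 1 CCAAT box, and Zfp810 held 2 CCAAT boxes and 1 GGGCGG box. Of the 221 genes 185 had a start region in the table. A CCAAT box was present in 49.0% of the 51 matched genes that fell, in 44.3% of 131 genes without a call, in 38.4% of 12585 regions of genes on the array and in 38.0% of all 27025 regions of the same length. GGGCGG was present in 51.0% of the genes that fell, 49.6% of those without a call, 55.9% of genes on the array and 35.9% of all regions, so its share in Zfp genes lay below that of other measured genes. The NRF1 motif was present in 7.84% of the genes that fell (4 of 51), 3.82% of those without a call, 1.61% of genes on the array and 0.981% of all regions. CACGTG, the E box, was present in 9 of 51 (17.6%), 6 of 131 (4.58%), 9.26% of genes on the array and 7.24% of all regions. The median number of CG pairs per region was 11 in the genes that fell, 17 in those without a call, 17 over genes on the array and 7 over all regions. The search covered 5 further motifs, none holding another: CCGGAAGT (ETS), TGACGTCA (CREB), TATAAA and the YY1 and ZNF143 motifs. CCGGAAGT was present in 7.84% of the genes that fell, 13.0% of those without a call, 6.36% of genes on the array and 3.99% of all regions. TATAAA was present in 7.84%, 7.63%, 9.73% and 14.2% of these sets, and TGACGTCA in 1.96%, 3.05%, 2.75% and 1.85%. The YY1 motif was present in 3.92% (2 of 51), 0.763%, 1.55% and 0.899%, and the ZNF143 motif in 0%, 3.82%, 0.572% and 0.3%. A match describes the letters only, and no test of these shares was made.

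**Figure D4:**
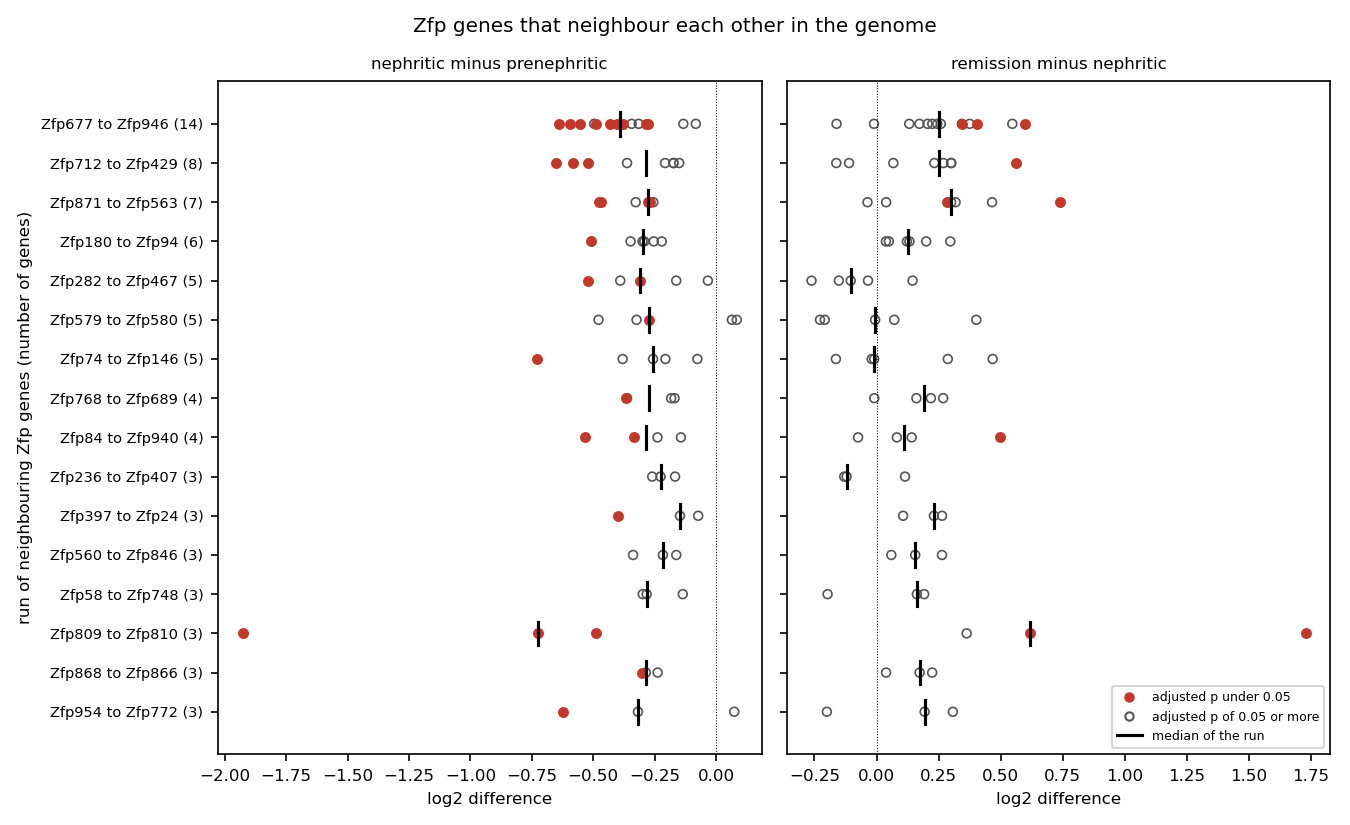
Log2 differences (horizontal) of the Zfp genes in 16 runs of neighbours (rows, named by first and last gene with the number of genes), for nephritic minus prenephritic (left) and remission minus nephritic arrays (right). Filled points passed an adjusted p of 0.05, bars are medians, and every run's median lies below 0 on the left, lowest at −0.73 for the run from Zfp809 to Zfp810.

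Remission arrays showed the opposite difference from nephritic arrays in part of the genes. Of the 221, 19 were higher (8.60%) and 3 lower (1.36%) in remission than in nephritic arrays by limma at an adjusted p under 0.05. Among all genes tested 3.27% were higher and 10% lower, and among genes with a mean of 6 or higher 4.36% were higher and 14.0% lower. The median difference of the 221 genes was 0.12 (quartiles −0.05 and 0.28), against −0.05 over genes with a mean of 6 or higher, and it was positive in 144 genes and negative in 77. Both comparisons use the nephritic arrays, so their values are set side by side below and are not separate evidence.

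The largest increase was again in Zfp599, which was 3.31-fold higher in remission than in nephritic arrays (1.73 ± 0.38, limma adjusted p = 0.00741). Zfp704 read 9.44, 9.49, 9.41 and 9.38 in remission arrays, 8.09 to 9.05 with a median of 8.52 in nephritic arrays and 9.08 to 9.63 with a median of 9.29 in prenephritic arrays. Its nephritic arrays lay below all others, with a remission minus nephritic difference of 0.84 ± 0.17 (adjusted p = 0.00332). Zfp763 read 9.87, 9.80, 9.51 and 9.59 in remission arrays, 8.59 to 9.27 with a median of 8.97 in nephritic arrays and 9.07 to 9.77 with a median of 9.51 in prenephritic arrays. Remission and nephritic arrays of Zfp763 did not overlap (0.74 ± 0.14, adjusted p = 0.00318), and 2 prenephritic arrays fell within the nephritic range.

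The other 7 of the 10 largest increases were Zfp827 (0.81 ± 0.17), Zfp658 (0.70 ± 0.21), Zfp810 (0.62 ± 0.15), Zfp229 (0.60 ± 0.13), Zfp551 (0.58 ± 0.17), Zfp938 (0.57 ± 0.12) and Zfp708 (0.56 ± 0.14). Their limma adjusted p ran from 0.00455 to 0.0365, and it was 0.05 or more under 11 of 28 other settings for Zfp551 and under 9 of 28 for Zfp658. Of these, Zfp827, Zfp229, Zfp938 and Zfp708 had remission arrays that all lay above the nephritic ones. In all, 14 of the 221 genes (6.33%) had remission arrays above all nephritic arrays and 1 (0.452%), Zfp362, had them below, against 2.34% and 9.31% of genes with a mean of 6 or higher. The 3 lower genes were Zfp362 (−0.58 ± 0.10, limma adjusted p = 0.00178), Zfp821 (−0.54 ± 0.14, adjusted p = 0.0195) and Zfp335 (−0.40 ± 0.12, adjusted p = 0.0407). Zfp335 did not pass under 14 of 28 other settings, and it stood at 0.05 in nephritic minus prenephritic arrays. Zfp207 stood at −0.24 ± 0.08 (adjusted p = 0.0586).

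The silencing genes of the role list had no call in this comparison and did not share a sign. Zfp809 differed by 0.36 ± 0.13 (limma adjusted p = 0.0822), Zfp445 by 0.50 ± 0.20 (adjusted p = 0.0999) and Zfp638 by 0.25 ± 0.09 (adjusted p = 0.0592) in remission minus nephritic arrays. Of the repressors under the level of 6, Zfp57 stood at −0.59 ± 0.19, with every remission array below every nephritic one (adjusted p = 0.05, not past the threshold), and Zfp568 at −0.15 ± 0.14 (adjusted p = 0.558). Zfp36 stood at −0.06 ± 0.16 (adjusted p = 0.865). The corepressor list had 0 higher and 5 lower of 32 genes (15.6%), a share near the 14.0% lower among genes with a mean of 6 or higher, among them Daxx (−0.71 ± 0.12), Atf7ip, the cofactor of SETDB1 (−0.47 ± 0.09), Uhrf1 (−0.52 ± 0.10) and Mta2, a remodelling complex subunit (−0.67 ± 0.14), with adjusted p from 0.00141 to 0.0064. Trim28 stood at −0.24 ± 0.08 (adjusted p = 0.051). In the tristetraprolin list 3 of 24 genes were lower (12.5%, likewise near 14.0%) and 0 higher, among them Il10 (−2.86 ± 0.58, adjusted p = 0.00406) and Mapkapk2 (−0.64 ± 0.14, adjusted p = 0.00594).

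Between remission and prenephritic arrays 0 of the 221 genes passed in either direction by limma, with shares of 0% higher and 0.00634% lower among all genes tested and of 0% and 0.00967% among genes with a mean of 6 or higher. At an unadjusted p under 0.05, 3 genes were higher and 34 lower of the 221, against 7.92% higher and 14.9% lower among genes with a mean of 6 or higher. In 1 gene all remission arrays lay above and in 4 genes all lay below the prenephritic arrays, against 0.445% and 2.34%. The median difference of the 221 genes was −0.14, against −0.07 for genes with a mean of 6 or higher. The 5 genes with the smallest p were Zfp282 (−0.68 ± 0.14), Zfp618 (0.81 ± 0.20), Zfp956 (−0.65 ± 0.16), Zfp296 (−0.60 ± 0.16) and Zfp653 (−0.52 ± 0.14), with adjusted p from 0.103 to 0.16. Zfp282 averaged 6.95 ± 0.17 in remission (SD, n = 4), 7.11 ± 0.25 in nephritic (SD, n = 7) and 7.63 ± 0.24 in prenephritic arrays (SD, n = 6), so remission arrays lay near the nephritic ones. Zfp618 averaged 6.60 ± 0.25 in remission, 6.43 ± 0.25 in nephritic and 5.79 ± 0.43 in prenephritic arrays. The absence of calls depended on the setting. With array weights 1 gene was higher (0.452%) and 4 were lower (1.81%), against 0.532% and 2.45% of genes with a mean of 6 or higher, and without prenephritic replicate 6, 1 was higher and 2 were lower, against 0.261% and 1.29%.

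The genes also varied together among arrays of the same group. The mean centred log2 value of the 221 genes was −0.02, −0.02, −0.02 and 0.08 in remission arrays 1 to 4, ran from −0.35 (replicate 6) to 0.08 (replicate 3) with a mean of −0.12 ± 0.14 (SD, n = 7) in nephritic arrays, and from 0.04 to 0.24 (replicate 5) with a mean of 0.135 ± 0.081 (SD, n = 6) in prenephritic arrays. Nephritic and prenephritic arrays overlapped on this mean, since nephritic replicate 3 exceeded prenephritic replicates 4 and 6. In that array 206 of the 221 genes lay above their own nephritic mean, and in nephritic replicate 6, 187 lay below it. After subtraction of group means, each gene correlated with the mean of the other 220 with a median r of 0.56 over 17 arrays, positive in 203 genes. The median r between pairs was 0.28, against 0.03 between 1010 other genes with a mean of 6 or higher sampled evenly through the table. These correlations share arrays and normalization and carry no p.

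**Figure D5:**
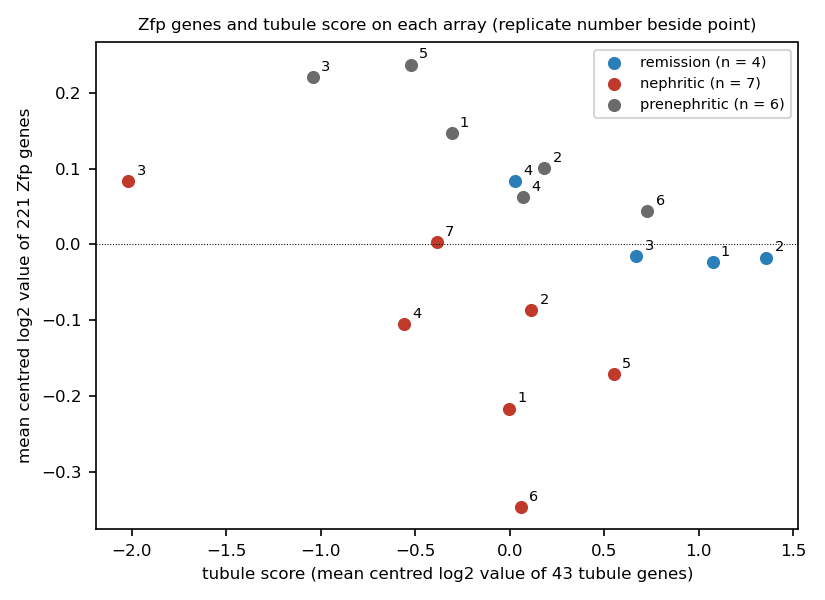
Mean centred log2 value of the 221 Zfp genes (vertical) against the tubule score (horizontal), 1 point per array, coloured by group and numbered by replicate. Nephritic replicate 3 has the lowest tubule score (−2.02) and the highest Zfp mean of its group (0.08), and remission arrays sit at scores of 0.03 to 1.36.

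The tubule score moved against most of the genes inside groups. The within-group correlation with the score had a median of −0.47 over the 221 genes and was negative in 202, against a median of −0.27 over all genes with a mean of 6 or higher (17 arrays). Zfp503 and Zfp697, chosen after their values were seen, went the other way, with r of 0.92 and 0.84. So did others, among them Zfp507 (0.75), Zfp706 (0.64) and Zfp618 (0.5), the last being a gene that rose in nephritic arrays. Zfp503 averaged 9.13 ± 0.79 in remission (SD, n = 4), 8.12 ± 0.61 in nephritic (SD, n = 7) and 8.16 ± 0.69 in prenephritic arrays (SD, n = 6). With the tubule score as a covariate, 98 of the 221 genes were lower in nephritic than in prenephritic arrays (44.3%, against 11.9% of genes with a mean of 6 or higher) and 40 were higher in remission than in nephritic arrays (18.1%, against 4.31%).

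Cell cycle genes moved with the groups in the opposite direction. Of 23 measured cell cycle genes 17 were higher in nephritic than in prenephritic arrays (73.9%, against 9.33% of genes with a mean of 6 or higher). In remission against nephritic arrays 22 were lower (95.7%, against 14.0% of those genes). The cell cycle score was −0.60 ± 0.14 in remission (SD, n = 4), 0.48 ± 0.17 in nephritic (SD, n = 7) and −0.16 ± 0.33 in prenephritic arrays (SD, n = 6). Inside groups the 221 genes had a median correlation of 0.03 with this score, against −0.01 for genes with a mean of 6 or higher. With the score as a covariate, which remission and nephritic arrays do not share in range, 6 genes were lower and 1 higher in nephritic arrays (2.71% and 0.452%, against 0.677% and 1.79% of genes with a mean of 6 or higher), and 0 passed between remission and nephritic arrays. The median nephritic minus prenephritic difference of the 221 genes was −0.26 with this covariate, against −0.25 in the main fit. The score ran from 0.261 to 0.665 in nephritic and from −0.577 to 0.394 in prenephritic arrays, so the shared range was narrow. Immediate early genes, which tissue handling can raise, and the excess of 3′ over 5′ signal in the actin and Gapdh controls, a sign of RNA integrity, differed with exact permutation p of at least 0.143 in all 3 comparisons.

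Single arrays decided part of the counts. Without prenephritic replicate 5, the array with the highest Zfp mean, 39 genes were lower in nephritic arrays in place of 59 (17.6%, against 4.89% of genes with a mean of 6 or higher). Without this array and nephritic replicate 6 together 27 were lower (12.2%, against 3.92%). Subtraction of array medians left 38 (17.2%, against 4.36%). Without remission replicate 2, 10 genes were higher in remission in place of 19 (4.52%, against 1.65%). The excess over the background of genes higher in remission shrank under other settings, to 5.43% against 4.23% with array medians subtracted and 13.6% against 9.96% with array weights. Leaving out any 1 array kept the median of the 221 genes between −0.28 and −0.21 for nephritic minus prenephritic arrays and between 0.08 and 0.16 for remission minus nephritic arrays.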

How the data were processed

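The deposited values are on the log2 scale and came from RMA, per the submitters' processing notes; RMA corrects background, equalises quantiles and summarises probes, and its version is not named. RNA from sorted cells was isolated with a kit for small samples and hybridised as biotinylated cRNA to Affymetrix arrays, per the labels' protocols. The sources used here give neither probe definition nor build. RMA compresses differences of dim genes and cannot show a change in total RNA per cell, and the number of arrays limits the precision. Array medians ran from 7.49 to 7.68.

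Of the probe sets, 759 controls or unnamed ones were left out. All 17 arrays and 15780 named genes entered a single limma 3.58.1 model (R 4.3.3) with 3 group means, leaving 14 residual degrees of freedom. Tests were two-sided, with Benjamini-Hochberg adjustment over all genes and a threshold of 0.05. The fit was tested on simulated data. Array measures were compared by exact permutation tests. Other settings are given in the closing section.

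Genes named are the 10 largest increases and decreases among called genes of a comparison (or the 5 smallest p where fewer than 5 passed), the 8 highest means, the 3 on each side of the level, the role list of 28, and up to 4 genes with the smallest p of a described list. The genes and lists were chosen with earlier results of these data known. A planned grouping by finger number and KRAB box was not made because no protein table was used here.

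Replicate numbers in the titles were not treated as pairs in the main model. Correlations of same-numbered deviations ran from −0.26 to 0.80 over 6 pairs of nephritic and prenephritic arrays. They ran from 0.0532 to 0.535 over 4 pairs of remission and nephritic arrays, and from −0.0661 to 0.387 over 4 pairs of remission and prenephritic arrays.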

Additional observations from a re-analysis of the deposited data

Results flagged for a closer look

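In 7 of 174 sets of values from 1 group, an array lay farther from its neighbours than chance gives in about 1 set in 20. These 7 are no more than that rate gives over 174 sets, so they are listed as a description. In remission arrays, Zfp551 was 6.65 in replicate 1 with the next value at 6.96, and Zfp956 was 7.17 in replicate 1 with the next at 7.50. The mean centred value of the 221 genes was 0.084 in remission replicate 4, above the next value of −0.015. Among nephritic arrays, Zfp974 was 6.51 in replicate 6, with the next at 7.06, and Zfp263 was 10.17 in replicate 1, with the next at 10.48. Among prenephritic arrays, Zfp335 was 7.94 in replicate 5, with the next at 8.30, and Zfp296 was 6.64 in replicate 6, with the next at 7.27.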

How the results depend on the processing

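For nephritic minus prenephritic arrays, the number of lower genes was 59 in the main fit (26.7%, against 6.90% of genes with a mean of 6 or higher). It became 38 after centring arrays on their medians (17.2% against 4.36%) and 98 with adjustment for the tubule score (44.3% against 11.9%). At a change of at least 1.5-fold it was 16 (7.24% against 2.34%). Without nephritic 6 and prenephritic 5 together it was 27 (12.2% against 3.92%). With the cell cycle score as a covariate it was 6 (2.71% against 0.677%), while the median difference was −0.26, against −0.25 in the main fit. The 4 higher genes (1.81% against 9.33%) became 2 at 1.5-fold (0.905% against 3.67%) and 1 with the cell cycle score (0.452% against 1.79%). Leaving out single arrays gave 39 (17.6% against 4.89%) to 73 (33% against 8.16%) lower and 3 to 4 higher genes. Medians were −0.28 to −0.21, and medians relative to genes with a mean of 6 or higher were −0.28 to −0.22.

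For remission minus nephritic arrays, the 19 higher genes became 12 with medians subtracted (5.43%, against 4.23% of genes with a mean of 6 or higher), 30 with array weights (13.6% against 9.96%), 40 with the tubule score (18.1% against 4.31%), 7 at 1.5-fold (3.17% against 2.24%) and 0 with the cell cycle score, and were 20 with the replicate block (9.05% against 8.82%); the main shares were 8.60% and 4.36%. The 3 lower genes (1.36% against 14.0%) became 5 with genes under 6 left out of the fit (2.26% against 16%). They became 8 with array weights (3.62% against 20.8%) and 5 with the replicate block (2.26% against 15.9%). At 1.5-fold they were 0, against 5.88%. They were 5 without nephritic 6 and prenephritic 5, 1 without nephritic 3 and remission 2 and 0 with the cell cycle score. The median of 0.12 became 0.24 with the tubule score. Single arrays left out gave 10 to 25 higher and 1 to 6 lower genes, medians of 0.08 to 0.16 and relative medians of 0.14 to 0.19. Without remission replicate 4, 6 were lower, and without remission replicate 1 or 2, 1 was. Shares over genes with a mean of 6 or higher moved too, to 3.33% higher and 11.7% lower without nephritic replicate 1. Without nephritic replicate 2 they were 5.11% and 14.8%. Counts with arrays left out therefore do not alone show a change particular to Zfp genes.

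For remission minus prenephritic arrays, 0 higher and 0 lower became 1 and 4 with array weights and 1 and 6 with the replicate block (0.452% and 2.71%, against 1.97% and 2.06%), and the median of −0.14 became −0.023 with the tubule score. Single arrays left out gave 0 to 1 higher and 0 to 2 lower genes, medians of −0.17 to −0.12 and relative medians of −0.09 to −0.06. The replicate block moved no other count by over 1.5 times, and same-numbered arrays correlated best with each other in 1 of 6, 0 of 4 and 1 of 4 pairs. The 1 reversed gene was Zfp658, at −0.12 in remission minus nephritic arrays with the cell cycle score. The causes were not tested. The covariate of the cell cycle score and both pairs of arrays left out were chosen after seeing the data.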
